A study of Coelastrella tenuitheca with 9 samples.

Results

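The 2 genes described here, A10744 and A05367, are genes of the freshwater green microalga Coelastrella tenuitheca that carry the product description beta-carotene ketolase. They were taken by gene identifier from the product descriptions of the deposited table, where they are the only 2 of 12605 genes described as beta-carotene ketolase. Wild-type cells of strain S93-3, a photosynthetic microalga, were pre-cultured with glucose under continuous light and then kept for 7 days in fresh medium with CdCl2 at 0 mg/L (Control), 20 mg/L (Cd20) or 50 mg/L (Cd50). Whole-cell poly(A) RNA was sequenced in 3 libraries per group, all labelled as batch 1, and a library is called by its group and its number (Control 1 to Cd50 3). Whether the 3 libraries per group stem from separate cultures is not stated in the labels, so the p-values speak only of the spread among these libraries, and that spread may be technical.

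Beta-carotene ketolases add keto groups to the rings of beta-carotene and related carotenoids. Their products are the red keto-carotenoids, such as canthaxanthin and, together with a hydroxylase, astaxanthin. In several green microalgae these pigments build up in oil droplets outside the plastid under strong light, nutrient shortage or other stress, and they are known as antioxidants. Beta-carotene itself is built from isoprenoid units that also feed sterols and protein prenylation.

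Both products were named in the deposited table by similarity to a protein of Phaffia rhodozyma, a fungus, so the description stands for a sequence match and not for a studied algal enzyme. The names of all other described genes below are also deposited product descriptions, and what these proteins do in this alga was not tested. A10744 lies on chromosome 9 from 1353685 to 1356047 and A05367 on chromosome 2 from 2767628 to 2769591, in deposited coordinates given without an assembly name or a strand. The listed lengths of 951 and 900 bases correspond to 317 and 300 codons and fill 40.2% and 45.8% of the annotated spans of 2363 and 1964 bases. In the median gene of the table the listed length filled 44.2% of the span. The identity between the 2 sequences was not analysed here, so reads shared by near-identical stretches of the 2 genes could have been split between them.

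Libraries held between 10457007 and 15456743 counts. The Pearson correlation of log2 CPM (counts divided by library size and TMM factor, pseudocount 1) was 0.978 to 0.993 within groups and 0.909 to 0.969 between groups. All 13 tested genes described as chlorophyll a-b binding, which mark a photosynthetic cell, summed to 797 to 888 CPM in Control, 714 to 868 CPM in Cd20 and 839 to 882.5 CPM in Cd50 libraries. On the first principal component, with 60.0% of the variance, Control 1 (-12.1) and Cd50 1 (18.2) lay nearer to the Cd20 libraries (-59.6 to -46.2) than the other libraries of their own groups did (14.6 and 30.0 for Control 3 and 2, 53.5 and 52.1 for Cd50 3 and 2). Results that rest on these 2 libraries are given with and without them.

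A10744 was the less abundant ketolase and was lower in every cadmium library than in every untreated one. In CPM, 31.4% of all tested genes were lower without overlap in Cd20 and 23.6% in Cd50 against Control. Its counts were 358, 164 and 240 in the Control libraries (numbers 1, 2 and 3, as in all lists that follow), 37, 43 and 24 in the Cd20 libraries, and 31, 12 and 9 in the Cd50 libraries. As CPM these were 24.6, 13.6 and 20.0 in Control, 3.57, 3.75 and 2.50 in Cd20, and 2.79, 0.878 and 0.707 in Cd50. Control 1 was the highest library of all 9, and Cd50 1 stood above the other Cd50 libraries and inside the range of the Cd20 libraries. Because whole cultures were sequenced, fewer cells that express the gene and less RNA per cell cannot be told apart.

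A05367, the more abundant ketolase, overlapped the untreated libraries at 20 mg/L and had its lowest levels at 50 mg/L. It had 2548, 1108 and 1412 counts in Control libraries, 1656, 1778 and 1740 counts in Cd20 libraries, and 1095, 654 and 589 counts in Cd50 libraries. In CPM the levels were 175, 91.8 and 118 in Control, 159.6, 155 and 181 in Cd20, and 98.4, 47.9 and 46.2 in Cd50. Cd20 libraries were the most alike, while Control 1 reached the Cd20 range and Cd50 1 lay between Control 2 and Control 3.

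**Figure D1:**
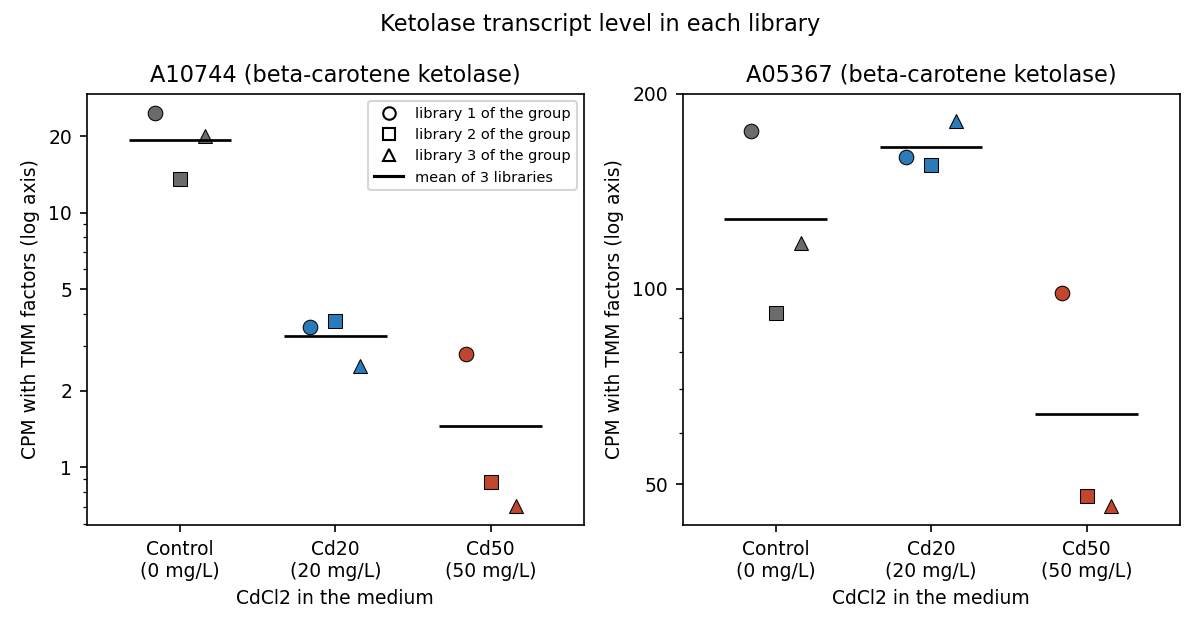
Level of A10744 (left) and A05367 (right) in each library, in CPM with TMM factors on a log axis, against the CdCl2 concentration; symbols mark the library number and bars the mean of 3 libraries. A10744 lies at 13.6 CPM or more in Control and at 3.75 CPM or less in both cadmium groups, whereas A05367 separates Cd50 from Cd20 but Cd50 1 (98.4 CPM) overlaps Control.

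At 20 mg/L the ketolases differed in their response. A10744 fell to 3.27 ± 0.675 CPM in Cd20 libraries, against 19.4 ± 5.55 CPM in Control libraries (SD, n = 3 each). The log2 fold change was -2.56 (SE 0.352), a 5.90-fold lower level, with an edgeR quasi-likelihood adjusted p of 0.000145 (Benjamini-Hochberg over 11140 genes). A05367 averaged 165 ± 14.0 CPM in Cd20 and 128 ± 42.8 CPM in Control libraries (SD, n = 3 each), a log2 fold change of 0.36 (SE 0.276, edgeR adjusted p = 0.285) with a 95% interval of -0.24 to 0.96. Thus 1 of the 2 ketolases was called lower. Of all genes tested, 27.2% were called lower and 51.0% in either direction in this comparison. The interval of A05367 holds both a small fall and a rise of nearly 1 log2 unit, and without Control 1 the gene passed as a rise (0.67, edgeR adjusted p = 0.0462), as it did without Control 1 and Cd50 1 together (0.67, adjusted p = 1.12e-05), a setting added once the data had been seen.

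The fall of A10744 at 20 mg/L was among the steepest of the table and held under each of the 19 alternative settings. Only 0.619% of the tested genes had a log2 fold change as low or lower. The range over the alternatives was -2.76 to -2.33, with adjusted p of 5.17e-11 to 0.00171. The summed counts of 104 in Cd20 and 762 in Control libraries gave a ratio of 0.167 with an exact 95% counting interval of 0.135 to 0.206, which covers counting error only.

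At 50 mg/L both ketolase transcripts were lower than without cadmium. A10744 averaged 1.46 ± 1.15 CPM in Cd50 and 19.4 ± 5.55 CPM in Control libraries (SD, n = 3 each), a log2 fold change of -3.78 (SE 0.388, edgeR adjusted p = 2.1e-05), or a 13.7-fold lower level. It ranked as number 5 from the lowest among the log2 fold changes of 11140 genes. A05367 fell to 64.2 ± 29.7 CPM in Cd50, against 128 ± 42.8 CPM in Control libraries (SD, n = 3 each), a log2 fold change of -1.004 (SE 0.281, 95% interval -1.62 to -0.39, edgeR adjusted p = 0.0143). In this comparison 21.8% of all genes were called lower and 39.6% in either direction, and 5.76% had a log2 fold change as low as that of A05367.

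The call of A05367 at 50 mg/L depended on single libraries, that of A10744 did not. Without Control 1, Cd50 2 or Cd50 3, A05367 had log2 fold changes of -0.69, -0.81 and -0.80 with edgeR adjusted p of 0.0617, 0.0611 and 0.0649. Without Cd50 1 it was -1.45, and without Control 1 and Cd50 1 together -1.13 (adjusted p = 1.44e-07). A10744 ranged from -4.60 to -3.43 when each library was left out in turn, with adjusted p of at most 0.000168. The summed counts of A10744, 52 in Cd50 and 762 in Control libraries, gave a ratio of 0.0702 (exact 95% counting interval 0.0519 to 0.0930). For A05367 the sums were 2338 in Cd50 and 5068 in Control libraries, a ratio of 0.475 (0.452 to 0.498). These intervals cover counting error only and leave out the spread between libraries.

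**Figure D2:**
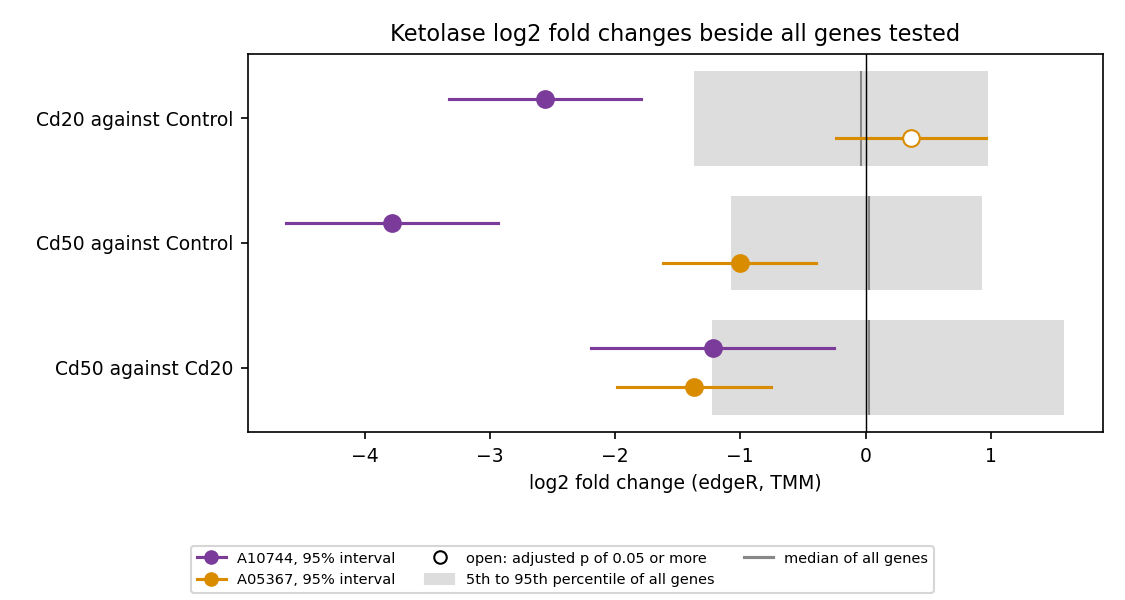
Log2 fold change of A10744 (purple) and A05367 (orange) in the 3 comparisons, with 95% intervals from the edgeR fit; open circles did not pass an adjusted p of 0.05, and grey bands run from the 5th to the 95th percentile of all genes tested. A10744 lies left of the band in both comparisons with Control (-2.56 and -3.78), while A05367 lies left of it only at 50 against 20 mg/L (-1.37).

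Between the cadmium concentrations, A05367 was lower in every Cd50 library than in any Cd20 library, as were 36.9% of all tested genes. It averaged 64.2 ± 29.7 CPM in Cd50 and 165 ± 14.0 CPM in Cd20 libraries (SD, n = 3 each), a log2 fold change of -1.37 (SE 0.283, edgeR adjusted p = 0.00116) that passed under each of the 19 alternatives, at -1.82 to -1.03. A10744 averaged 1.46 ± 1.15 CPM in Cd50 and 3.27 ± 0.675 CPM in Cd20 libraries, and its log2 fold change of -1.22 (SE 0.445, 95% interval -2.19 to -0.25, edgeR adjusted p = 0.0276) came with overlapping groups, since Cd50 1 (2.79 CPM) stood above Cd20 3 (2.50 CPM). Both ketolases were thus called lower, in a comparison in which 34.7% of all genes were called lower and 70.0% in either direction.

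The call of A10744 between the cadmium concentrations was not stable. It was lost with edgeR adjusted p of 0.0821 without Cd20 1, 0.0825 without Cd20 2, 0.101 without Cd50 2 and 0.104 without Cd50 3, whereas without Cd50 1 the log2 fold change was -2.04, and -2.03 without Control 1 and Cd50 1 together. With library size alone as the scaling it was -0.87 (edgeR adjusted p = 0.0785). That scaling moves the median of all genes from 0.03 with TMM to 0.39, and relative to the median A10744 was at -1.26 with library size alone and at -1.24 with TMM. A05367 was at -1.42 with library size alone and at -1.39 with TMM on the same relative scale.

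**Figure D3:**
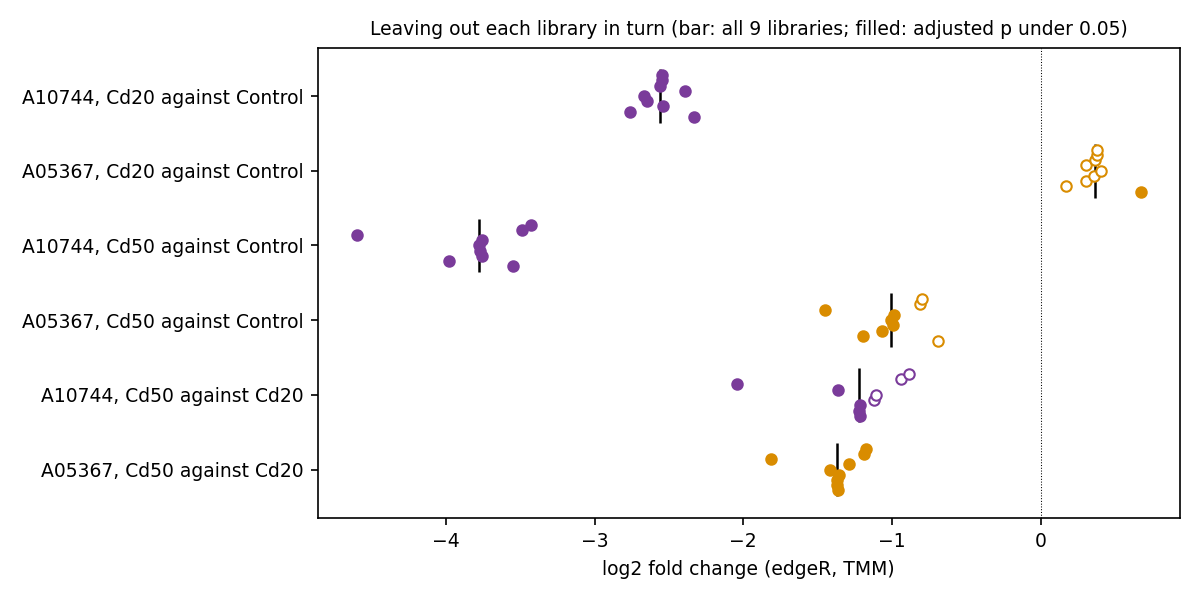
Log2 fold change of each ketolase in each comparison when 1 of the 9 libraries was left out (9 points per row, on the edgeR TMM scale); black bars mark the value from all 9 libraries and filled points an adjusted p under 0.05. A10744 against Control and A05367 at 50 against 20 mg/L are filled throughout, while A05367 at 50 mg/L against Control and A10744 at 50 against 20 mg/L each have open points.

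In Control and Cd50 libraries, replicates of both genes spread more than their read counts alone give, but A10744 in Cd20 only slightly more. In Control libraries the coefficient of variation of CPM was 33.3% for A05367, against a counting error of 2.43%, and 28.6% for A10744, against 6.27%. In Cd50 libraries it was 46.2% for A05367 (counting error 3.58%) and 79.2% for A10744 (24.0%), and in Cd20 libraries 8.45% (2.41%) and 20.6% (17.0%). Spread in Control exceeded that of 98.6% of the 500 tested genes nearest in mean CPM over all 9 libraries for A05367 and of 83.4% for A10744, in Cd20 that of 74.9% and 77.4%, and in Cd50 that of 97.8% and 99.8%. These genes were not matched on the level within each group. A10744 averaged 19.4 CPM in Control, 3.27 CPM in Cd20 and 1.46 CPM in Cd50, so its shares mix spread with level. Control 1 and Cd50 1, displaced on the first principal component, were the highest libraries of their groups for both ketolases. Ordered by level from high to low, Control 1, Control 3, Cd50 1, Control 2, Cd50 2 and Cd50 3 took places 2, 5, 6, 7, 8 and 9 for A05367 and places 1, 2, 6, 3, 8 and 9 for A10744. Ordered from low to high on the first component, whose sign is arbitrary, they took places 4, 5, 6, 7, 8 and 9. Cd20 1, Cd20 2 and Cd20 3 took places 3, 2 and 1 on that component, 3, 4 and 1 for A05367, and 5, 4 and 7 for A10744. The order of A10744 thus departed from that of the component. The part of that displacement in the results was not tested.

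Levels of the 2 genes can be compared per length in FPKM (counts divided by gene length and library size). A05367 stood at 138 ± 41.6 FPKM in Control, 164 ± 12.8 FPKM in Cd20 and 80.3 ± 31.3 FPKM in Cd50 libraries (SD, n = 3 each), which placed it above 90.2%, 92.4% and 84.0% of the tested genes. A10744 stood at 19.8 ± 5.15, 3.08 ± 0.654 and 1.70 ± 1.23 FPKM in the same groups (SD, n = 3 each), above 57.9%, 22.5% and 5.83% of the tested genes. A05367 was the higher ketolase in each of the 9 libraries, by 6.22- to 7.52-fold in Control, 43.7- to 76.6-fold in Cd20 and 37.3- to 69.2-fold in Cd50.

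The ratio of A10744 to A05367, in which library size cancels, was lower in both cadmium groups and overlapped between them. The log2 ratio of FPKM was -2.91, -2.84 and -2.64 in Control libraries, -5.56, -5.45 and -6.26 in Cd20 libraries, and -5.22, -5.85 and -6.11 in Cd50 libraries. All 6 cadmium libraries lay below all Control libraries. The groups differed by an exact permutation test over the 1680 assignments of 9 libraries to 3 groups (p = 0.0357, between-group sum of squares; the smallest p such a test can give is 0.00357).

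Pairwise, the mean log2 ratio differed by -2.96 between Cd20 and Control (-5.76 in Cd20, -2.79 in Control) and by -2.93 between Cd50 and Control (-5.73 in Cd50). Each of these 2 exact permutation tests of 3 against 3 libraries gave p = 0.1, the smallest it allows (0.15 adjusted over the 3 pairs, two-sided). The difference of Cd50 and Cd20 was 0.03 (exact permutation p = 1), with SDs of 0.457 in Cd50 and 0.439 in Cd20 libraries. With groups permuted only within replicate numbers (216 assignments) the exact p over the 3 groups was 0.111, and without Control 1 and Cd50 1 it was 0.0571, so the call did not hold in either. The smallest p within replicate numbers is 0.0278. All Control ratios lay above all cadmium ratios in both settings, so these p-values do not show a lost separation from Control.

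A10744 made up 12.6 ± 1.10% of the summed ketolase FPKM in Control, 1.87 ± 0.507% in Cd20 and 1.91 ± 0.619% in Cd50 libraries (SD, n = 3 each). The sum itself was 208, 116 and 150 FPKM in Control libraries, 162, 159 and 181 FPKM in Cd20 libraries, and 119.5, 64.1 and 62.3 FPKM in Cd50 libraries. The summed level thus followed A05367: Cd20 lay inside the range of Control, and the highest Cd50 library, Cd50 1, lay just above the lowest Control library, Control 2. FPKM are scaled by library size alone, without the TMM factors of 1.065 for Cd50 1 and 0.994 for Control 2. The narrow overlap of these libraries therefore holds for that scaling only, and the sum was not tested.

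**Figure D4:**
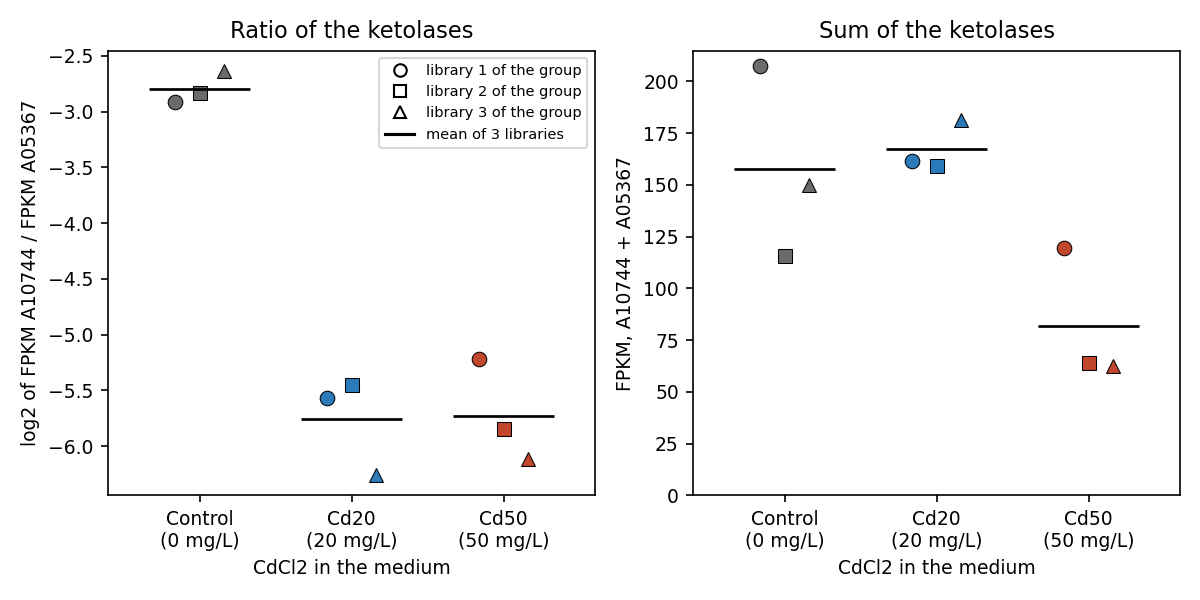
Left, log2 ratio of A10744 to A05367 in FPKM per library; right, the sum of both in FPKM, by CdCl2 concentration, with bars at the mean of 3 libraries. The ratio lies lower in all cadmium libraries (means -2.79 in Control, -5.76 in Cd20, -5.73 in Cd50), while the sum has its lowest mean in Cd50 (82.0 FPKM) with Cd50 1 just inside the range of Control on this scale without TMM factors.

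Other genes of carotenoid synthesis were sought by product words such as phytoene, lycopene, carotenoid and zeaxanthin, and 0 matched apart from the 2 ketolases; only 19.49% of genes carry a product. Words for desaturases, fatty acid hydroxylases and beta-carotene hydroxylases also matched 0 genes, and hydroxylases of other kinds were not searched for. Words for isoprenoid supply and use matched 7 genes, all tested. At 20 mg/L against Control 2 of the 7 rose, 3 fell and 2 did not pass, with a median log2 fold change of -0.19, where 23.8% of all genes were called higher and 27.2% lower and the median was -0.03. At 50 mg/L against Control 0 rose, 1 fell and 6 did not pass (median 0.08, against 17.8% of all genes called higher, 21.8% lower and a median of 0.03). At 50 against 20 mg/L 2 rose, 1 fell and 4 did not pass (median -0.06, against 35.3% called higher, 34.7% lower and a median of 0.03). These counts moved with the scaling and with single libraries, and so did the calls over all genes. At 20 mg/L, 0 rose and 2 fell without Control 2, without Control 3 or without Cd20 3, and 1 rose and 2 fell without Cd20 2. In the same order, rises and falls over all genes were 1947 and 2360, 1916 and 2371, 2130 and 2312, and 2024 and 2432. With all 9 libraries they were 2650 and 3026 of 11140 genes. At 50 mg/L against Control, 0 rose and 2 fell without Control 2, 1 rose and 1 fell without Control 3, and 1 rose and 2 fell without Cd50 1. Over all genes 2145 rose and 2519 fell without Control 2, and 1381 rose and 1993 fell without Control 3. With library size alone 5 rose and 1 fell at 50 against 20 mg/L and 2 rose and 1 fell at 50 mg/L against Control, where a replicate block gave 0 rises and 2 falls. Over all genes library size alone gave 5440 rises and 2262 falls at 50 against 20 mg/L, where the main fit gave 3928 and 3865. At 50 mg/L against Control it gave 3851 and 1582, the replicate block 2205 and 2619, and the main fit 1983 and 2431. Without Control 1 and Cd50 1, 2 rose and 4 fell at 20 mg/L, and 1 rose and 2 fell at 50 mg/L against Control. Over the 19 alternatives 4287 to 7423 genes of all kinds were called at 20 mg/L and 3054 to 5614 at 50 mg/L against Control.

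In the supply of isoprenoid units, A07456, described as 1-deoxy-D-xylulose 5-phosphate reductoisomerase, which makes the first dedicated intermediate of the plastid pathway that feeds carotenoids in green algae, was lowest at 20 mg/L. Its CPM were 28.2, 33.3 and 37.8 in Control, 28.2, 23.8 and 22.3 in Cd20, and 38.9, 42.6 and 45.1 in Cd50. The gene fell by 0.42 on the log2 scale in Cd20 against Control (edgeR adjusted p = 0.0263, lost when Control 2, Control 3, Cd20 2 or Cd20 3 was left out, at 0.0585, 0.128, 0.0868 and 0.112) and rose by 0.77 in Cd50 against Cd20 (adjusted p = 0.000505). Cd50 lay above Control in all libraries, at 0.35 with an adjusted p of 0.0574, and passed as a rise under 8 of the 19 alternatives, among them upper quartile factors (0.51, edgeR adjusted p = 0.0171), library size alone (0.59, 0.00847) and the fits without Control 3 (0.46, 0.0439) or without Cd50 1 (0.40, 0.0307). Upper quartile factors and library size alone put the median of all genes in that comparison at 0.19 and 0.26. Isopentenyl-diphosphate isomerase (A02585), which interconverts the isoprenoid building blocks, rose to 19.8 ± 3.40 CPM in Cd20, against 12.0 ± 3.29 CPM in Control (SD, n = 3 each; log2 fold change 0.72, edgeR adjusted p = 0.0149, lost at 0.0567 without Control 2, 0.0507 without Control 3 and 0.0632 without Cd20 3). Farnesyl pyrophosphate synthetase (A09746), which joins these units, did not pass in any comparison with TMM factors, at 64.2 ± 4.56, 72.6 ± 3.38 and 68.1 ± 3.02 CPM in Control, Cd20 and Cd50 (SD, n = 3 each). With library size alone it was called higher in Cd50 against Control (0.32, edgeR adjusted p = 0.0259) and against Cd20 (0.27, adjusted p = 0.0406), where that scaling puts the median of all genes at 0.26 and 0.39.

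Among genes that draw on the same units, A07551, a squalene synthase, which takes farnesyl pyrophosphate into sterol synthesis, was low at 20 mg/L. Its CPM were 4.89, 8.70 and 8.41 in Control, 3.18, 2.79 and 2.71 in Cd20, and 5.48, 7.83 and 9.74 in Cd50. All Cd20 libraries lay below those of both other groups, with a log2 fold change of -1.33 in Cd20 against Control (edgeR adjusted p = 0.00239) and of 1.41 in Cd50 against Cd20 (adjusted p = 0.000917). Lanosterol synthase (A00972), which closes the sterol ring system, fell in both cadmium groups against Control, by 0.51 in Cd20 and by 0.56 in Cd50 (edgeR adjusted p = 0.00208 and 0.00137). Squalene epoxidase (A04249), which acts between these, was at 209 ± 12.7 CPM in Control, 182 ± 13.1 CPM in Cd20 and 196 ± 3.90 CPM in Cd50 (SD, n = 3 each) and did not pass with TMM factors. Scaled by the upper quartile or by library size alone, it was called lower in Cd20 against Control (-0.29 and -0.32, edgeR adjusted p = 0.0285 and 0.0174) and higher in Cd50 against Cd20 (0.35 and 0.46, adjusted p = 0.00666 and 0.00123), and without Control 1 and Cd50 1 it was also called lower in Cd20 against Control (-0.20, adjusted p = 0.0366). With the upper quartile and library size alone, the median of all genes was -0.13 and -0.16 in Cd20 against Control. In Cd50 against Cd20 the median was 0.28 and 0.39.

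The list also held A07083, described as the alpha subunit of a CAAX prenyl transferase of the geranylgeranyl type, which attaches a prenyl group to proteins and makes no carotenoid. It rose in Cd20, to 66.3 ± 1.80 CPM against 46.5 ± 8.09 CPM in Control (SD, n = 3 each; log2 fold change 0.51, edgeR adjusted p = 0.0262, a call lost without any one of Control 2, Control 3 and Cd20 1 to 3, at 0.0514 to 0.102). In Cd50 it stood at 35.3 ± 9.06 CPM (SD, n = 3), lower than in Cd20 by a log2 fold change of -0.91 (edgeR adjusted p = 0.000657). Against Control it was at -0.40 (edgeR adjusted p = 0.0803) and passed as a fall under 4 of the 19 alternatives. Among them were a replicate block (edgeR adjusted p = 0.0381) and the fit without Control 2 (-0.53, 0.0282). None of the 7 genes had a log2 fold change as low as that of A10744 against Control.

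**Figure D5:**
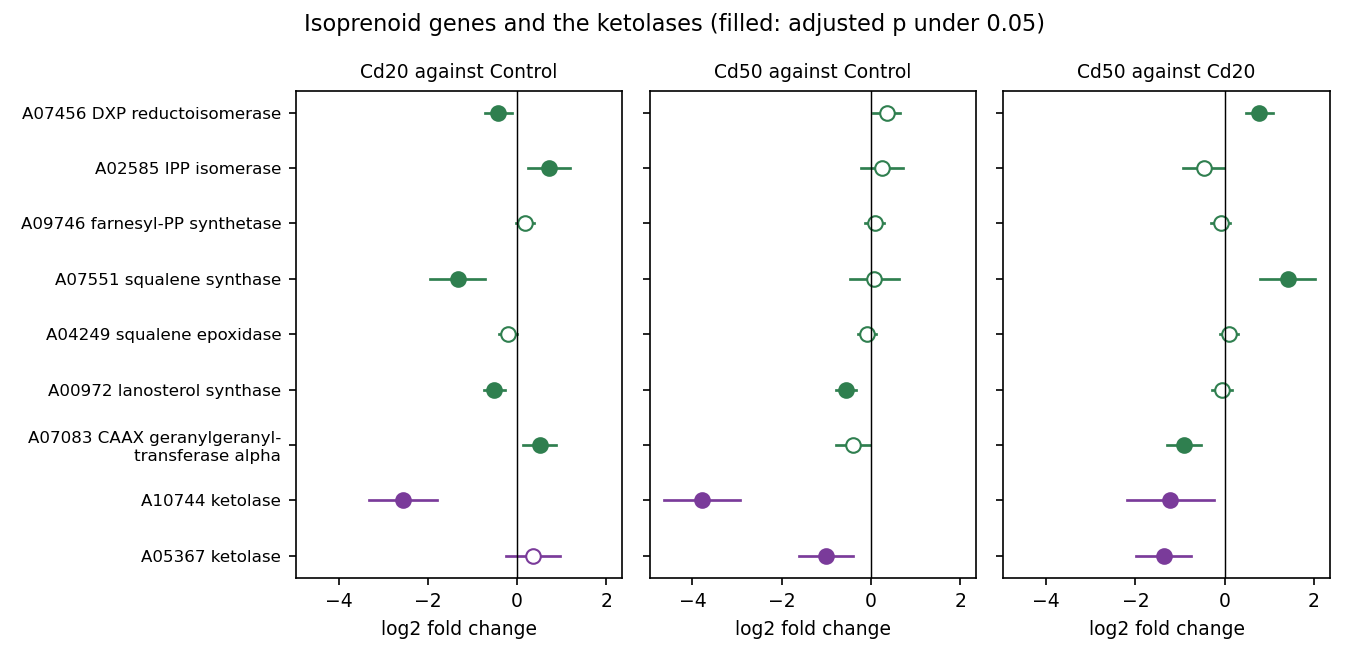
Log2 fold change with 95% interval of the 7 genes matched by words for isoprenoid supply and use (green) and of the ketolases (purple) in the 3 comparisons, from the edgeR fit with TMM; filled points passed an adjusted p of 0.05. The isoprenoid genes lie between -1.33 and 1.41, and A10744 at -2.56 and -3.78 against Control.

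The genes whose levels ran most like those of A10744 over the 9 libraries were undescribed A09686, A03691 and A06240 (Pearson r of log2 CPM of 0.995, 0.992 and 0.992), and among genes with a product A10649, an ornithine decarboxylase, which makes the polyamine putrescine (r = 0.981), A07895, a zinc/iron permease, of a family that carries metal ions (0.979), and A09138, a hypothetical protein (0.978). Closest to A05367 were A10825 (0.997, undescribed), A01467, described as adiponectin receptor protein 1 (0.997), A02521 (0.997, undescribed), the hypothetical protein A08610 (0.995) and A04826, with a kinase-like domain (0.993). These r values describe 9 libraries in 3 groups that share the same displaced libraries. The amplitude differed among the genes that ran alike: A07895 stood at 978, 667 and 781 CPM in Control, 102, 102 and 161 CPM in Cd20 and 88.2, 25.9 and 29.7 CPM in Cd50, whereas A10649 stood at 1071, 1081 and 1070 CPM in Control, 821, 809 and 768 CPM in Cd20 and 744, 697 and 639 CPM in Cd50. The r between the 2 ketolases was 0.597, and 1787 tested genes ran closer to A10744 than A05367 did.

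Along the chromosomes, no neighbour within 2 genes of either ketolase has a product. Next to A10744, A10743 lies 2108 bases away on the side of lower coordinates and A10745 lies 2258 bases away on the other side. A10743 fell in both cadmium groups, to 155 ± 4.64 CPM in Cd20 and 143 ± 11.3 CPM in Cd50, against 259.6 ± 9.21 CPM in Control (SD, n = 3 each; log2 fold changes -0.74 and -0.86, edgeR adjusted p = 6.47e-05 and 2.57e-05). A10745 did not pass in any comparison, with 68.8 ± 6.31 CPM in Control, 68.9 ± 2.87 CPM in Cd20 and 59.5 ± 2.46 CPM in Cd50 (SD, n = 3 each). Farther out, A10742 rose in Cd50 to 55.0 ± 6.48 CPM, against 32.9 ± 0.184 CPM in Control (SD, n = 3 each; log2 fold change 0.74, edgeR adjusted p = 0.000463), and A10746 did not pass. A10742 was also higher in Cd50 than in Cd20 (0.72, edgeR adjusted p = 0.000274). Of all genes, 51.0% were called in either direction in Cd20 against Control, 39.6% in Cd50 against Control and 70.0% in Cd50 against Cd20.

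Near A05367, the closest genes are Novel00826, 2205 bases away on the side of lower coordinates, and A05368, 4063 bases away on the other side. Novel00826 is a low gene, at 9.36 ± 1.08 CPM in Cd50 and 4.30 ± 0.838 CPM in Cd20 (SD, n = 3 each), a log2 fold change of 1.12 (edgeR adjusted p = 0.000398), opposite in sign to A05367 (-1.37). A05368 rose to 159.5 ± 16.4 CPM in Cd50, against 91.2 ± 11.9 CPM in Control (SD, n = 3 each; log2 fold change 0.81, edgeR adjusted p = 0.00031), where A05367 fell. Novel00826 rose in Cd50 against Control as well (0.60, edgeR adjusted p = 0.0215). Of the next genes outward, A05370 fell by 0.53 in Cd50 against Control (edgeR adjusted p = 0.00132) and Novel00745 did not pass there (0.22, adjusted p = 0.562). Between the cadmium concentrations A05368 was also higher in Cd50 than in Cd20 (0.48, edgeR adjusted p = 0.00368), whereas A05370 (-0.51, adjusted p = 0.000787) and Novel00745 (-0.77, adjusted p = 0.0214) were lower, with the same sign as A05367. The call of A05368 held under all 19 alternatives. That of Novel00745 was lost under 6, among them upper quartile factors (edgeR adjusted p = 0.108) and the fit without Cd20 1 (0.155). That of A05370 was lost under 3, among them library size alone (edgeR adjusted p = 0.218). At 20 mg/L against Control, Novel00745 rose by 0.99 and A05368 by 0.33, while Novel00826 fell by 0.51 (edgeR adjusted p = 0.00997, 0.0394 and 0.0472). These calls were lost under 1, 9 and 11 of the 19 alternatives, and A05370 did not pass there. Of all genes, 51.0% were called in either direction at 20 mg/L, 39.6% at 50 mg/L against Control and 70.0% between the cadmium concentrations.

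The authors' deposited tables list A10744 in all 3 comparisons, with log2 fold changes of -2.54 in Cd20 against Control, -3.78 in Cd50 against Control and -1.22 in Cd50 against Cd20. The same deposited tables list A05367 at -1.02 in Cd50 against Control (adjusted p = 0.00628, authors' deposited table) and at -1.39 in Cd50 against Cd20, and do not list it in Cd20 against Control, where only genes with an adjusted p under 0.05 appear.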

How the data were processed

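Values were used as deposited, without new alignment. Per the submitters' processing notes, STAR 2.7.10a, StringTie 2.2.1 and DESeq2 1.34.0 were used. Not given in the sources used here are the counting program, its use of strand and the assembly. The deposited counts are whole numbers for 12605 genes. Recomputing FPKM from the counts, listed lengths and column totals gave the deposited value within 1% in 100% of cases. Per the file headers, each comparison table of the authors has a log2 fold change, a p-value, an adjusted p-value and group means of normalized counts (a signal per group, not used here). Of the listed lengths, 91.85% were multiples of 3.

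The main test was the quasi-likelihood F-test of edgeR 4.0.16 in R 4.3.3 on the counts of all 9 libraries, with TMM factors and no factor beside group. The filterByExpr step kept 11140 genes and removed 1465, and a call needed an adjusted p under 0.05 (Benjamini-Hochberg over all kept genes). The biological coefficient of variation was 0.139. SEs are the log2 fold change divided by the square root of F. Alternatives used DESeq2 1.42.0, limma 3.58.1 on log2(FPKM + 1) and log2(FPKM + 0.1), other scalings, no filter, 6 libraries only, a replicate block and leaving out libraries.

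Residuals of same-numbered libraries correlated at 0.582, 0.436 and 0.179 for Cd50 and Control. Whether these libraries are paired was not tested. The labels do not say what a number stands for, so no block was used in the main test.

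The members, lists and tests were chosen with earlier results of these data known. Named were all list members, although the rule asked for 3 of 7, the 3 described and 3 other genes of highest Pearson r, and 2 neighbours on each side. The comparisons printed for neighbours were picked after their values were seen.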

Additional observations from a re-analysis of the deposited data

How the results depend on the processing

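The direction and call of A10744 against Control in both cadmium groups, and of A05367 in Cd50 against Cd20, held under all 19 alternatives each. A10744 in Cd50 against Cd20 lost its call with upper quartile factors (-0.97, edgeR adjusted p = 0.0564), library size alone (-0.87) and limma on log2(FPKM + 1) (-0.67, adjusted p = 0.0561), and ranged from -2.04 to -0.88 when 1 library was left out. On the last scale the pseudocount itself shrinks the change of a low gene. A05367 ranged from 0.17 to 0.67 in Cd20 against Control and from -1.45 to -0.69 in Cd50 against Control when 1 library was left out, and was 0.67 in Cd20 against Control without Control 1 and Cd50 1. The log2 ratio of A10744 to A05367, Cd50 minus Control, was -2.93 with a replicate block and -3.24 without Control 1 and Cd50 1, with exact permutation p over the 3 groups of 0.111 and 0.0571; it ranged from -3.19 to -2.74 with 1 library left out.

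The replicate block changed no other ketolase call (A05367 in Cd50 against Control was -1.02, edgeR adjusted p = 0.00174). Same-numbered residuals correlated at -0.155, 0.0454 and -0.0389 for Cd20 and Control and at -0.197, 0.126 and -0.201 for Cd50 and Cd20. A pairing of these libraries was not tested either. Scaling moved small changes of isoprenoid genes across 0, in part to calls of the opposite sign, and it also moved the median of all genes. Upper quartile factors put that median at 0.19 in Cd50 against Control and at 0.28 in Cd50 against Cd20. Library size alone put it at 0.26 and 0.39. The values that follow for these scalings lie under those medians. With upper quartile factors, library size alone and limma on log2(FPKM + 1) and log2(FPKM + 0.1), squalene epoxidase A04249 was at 0.068, 0.14, 0.14 and 0.14 in Cd50 against Control, and in Cd50 against Cd20 lanosterol synthase A00972 was at 0.20, 0.31, 0.29 and 0.30 and farnesyl pyrophosphate synthetase A09746 at 0.16, 0.27, 0.26 and 0.26. The last 3 values of both A00972 (adjusted p = 0.04, 0.0343 and 0.0324) and A09746 (0.0406, 0.0417 and 0.0426) were calls of a rise, in edgeR and limma, whereas those of A04249 in Cd50 against Control did not pass. With 1 library left out A07551 ranged from -0.13 to 0.26 in Cd50 against Control and A00972 from -0.082 to 0.012 in Cd50 against Cd20.

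The share of called genes that were higher was 36.6%, 70.9% and 70.6% with library size alone, and 46.7%, 44.9% and 50.4% with TMM, in Cd20 against Control, Cd50 against Control and Cd50 against Cd20. With upper quartile factors it was 39.7%, 62.9% and 64.5%. The cause was not tested. A10744 had 9 to 43 counts per cadmium library; its summed counts, 52 in Cd50 and 104 in Cd20, gave a ratio of 0.419 (exact 95% counting interval 0.294 to 0.590, below 1), and the spread between Cd50 libraries (79.2%) was larger than the counting error (24.0%).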
